A study of Mus musculus with 31 samples.

Results

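The 37 genes described here code for proteins that fold, modify, export or dispose of secretory proteins in the endoplasmic reticulum (ER), together with the sensors of the unfolded protein response. They were chosen by name, with earlier results of these data known. Each was found in both deposited tables, as 37 of 41549 genes in the 5-month table and 37 of 36333 genes in the table of old livers. Selenos was matched in the old-liver table by its gene identifier, because it is listed there under its older symbol Vimp. All 37 passed the filter on low counts in both tables.

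The ER of a hepatocyte folds the bulk of the plasma proteins. The chaperone BiP, the product of Hspa5, binds unfolded chains together with its J-domain and nucleotide-exchange partners, protein disulfide isomerases form the disulfide bonds, and chains that do not fold are drawn back through the membrane and degraded, a route called ER-associated degradation (ERAD). When unfolded protein builds up, the sensors IRE1 (Ern1), ATF6 and PERK (Eif2ak3) signal to the nucleus and to the ribosome, and the factors ATF6 and spliced XBP1 raise transcription of many chaperone and ERAD genes through a promoter motif known as the ER stress response element (ERSE).

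Poly(A) RNA of mouse liver was sequenced in 31 libraries to ask what the loss of Myc, of Mlx or of both does to transcription, and how adenomas of Mlx-deleted liver differ from old liver. Myc drives transcription in proliferating cells, and Mlx is the shared partner of the glucose-responsive factors MondoA and ChREBP. At 5 months there were 5 libraries labelled DKO (Mlx and Myc both floxed on both alleles), 4 labelled MlxKO (Mlx floxed), 6 labelled MycKO (Myc floxed) and 6 of wild type (WT), all after a fast of 14 h. The 3 knockout groups carry the cre/ERT2 knock-in Gt(ROSA)26Sor tm1(cre/ERT2)Tyj, a tamoxifen-activated Cre recombinase at the Rosa26 locus in all cell types, on a B6.129 background, whereas the WT strain is given as C57/B6. A second set held 5 adenomas of MlxKO liver (Alb_CreERT2 with floxed Mlx, a driver active in hepatocytes), of mice aged 14, 15 or 17 months, and 5 old WT livers of 17 months, none of them fasted. All mice, WT included, had been injected with tamoxifen on 5 days, at 75 mg/kg, starting at 28 days of age. Loss of a gene and presence of Cre or a different strain background therefore cannot be told apart in comparisons with WT. The design text speaks of several livers per group, but no label ties a library to an animal, so the p-values speak of the spread among these libraries, part of which may be technical. DKO and MlxKO were all male, MycKO and WT held 4 males and 2 females each, the adenomas were labelled as 4 females and 1 male, and old WT as 2 females and 3 males.

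Total counts per library were 18226467 to 28476797 at 5 months, 34590164 to 37087490 in the adenomas and 16036626 to 18690029 in old WT. Counts were scaled to CPM, the count of a gene relative to the TMM-scaled total of its library. Calls were made below 0.05 for the p-value after Benjamini-Hochberg adjustment across the genes tested, which were 13397 for the 5-month table and 13954 for the old one. Myc stood at 1.31 ± 0.728 CPM in DKO, 10.0 ± 3.18 in MlxKO, 1.67 ± 0.692 in MycKO and 12.9 ± 6.75 in WT (SD, n = 5, 4, 6 and 6). Mlx stood at 17.0 ± 1.45 CPM in DKO, 19.0 ± 2.28 in MlxKO, 24.4 ± 2.27 in MycKO and 26.4 ± 1.95 in WT, and at 25.3 ± 4.14 in adenomas against 38.7 ± 5.38 in old WT (n = 5 each). Mlx counts remained in DKO, MlxKO and adenomas, so gene counts alone do not show how far Mlx was lost. Among low counts, under 20 and above 0, the share of even values was 81.0 to 83.1% in adenomas and 42.3 to 44.1% in old WT. Total counts and this share both parted all adenomas from all old WT libraries. Tumour and a difference in sequencing or processing therefore cannot be told apart in that comparison. Adenoma 5, labelled male, had 0 counts over 4 Y-linked genes and 984.8 CPM of Xist without TMM scaling. Old WT livers labelled male had 1682 to 2070 such Y-linked counts and 0.0543 to 0.312 CPM of Xist. Adenomas and old WT livers labelled female had 0 and 538.2 to 810.9 CPM. By these genes adenoma 5 is female, as are the other adenomas, but the main fit kept its label. Adenoma results below come from that fit unless stated otherwise. With all adenomas female, a sex term rests on the 2 female and 3 male old WT livers. Marker genes of hepatocytes summed to 85385 to 119251 CPM in DKO and 96728 to 163482 CPM in WT, as liver would give. The immunoglobulin genes Igha, Ighm and Igkc and the T cell receptor gene Trac were at 0 in every library. Other markers of plasma and B cells had counts in every group. Whether the genes at 0 were counted at all is not known, so their zeros give no information on plasma cells. WT 2, WT 5 and MycKO 5 stood apart in earlier results of these data, and results are also given without them. In bulk liver, fewer cells of a type and less RNA per cell cannot be told apart.

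The promoters are shown first because 6 of the genes that were higher in DKO liver hold the ERSE. The motif was searched as CCAAT, a gap of 9 bases and CCACG, on both strands, in the 250 bases before the start of each gene in RefSeq (GRCm38.p6). It was present in 35 of 27025 genes with such a window (0.130%) and in 9 of the 31 ER genes with one (29.0%). By call, 6 of 14 genes called higher in DKO against WT held it (42.9%), and 3 of the other 17 did (17.6%, Calr, Canx and Pdia6). The ERSE was defined on promoters of this very gene family, so its presence describes the genes and is no independent result. In each sequence the capitals mark both ends of the motif, which read CGTGG and ATTGG where it lies on the other strand, and Hsp90b1 holds it at 2 places.
Hspa5: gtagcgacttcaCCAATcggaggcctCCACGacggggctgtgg
Hsp90b1: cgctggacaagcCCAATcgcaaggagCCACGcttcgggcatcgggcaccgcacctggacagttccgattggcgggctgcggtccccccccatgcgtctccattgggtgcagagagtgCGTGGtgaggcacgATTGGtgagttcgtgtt
Creld2: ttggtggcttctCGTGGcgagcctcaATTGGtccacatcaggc
Derl3: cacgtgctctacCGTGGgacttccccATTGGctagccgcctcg
Dnajc3: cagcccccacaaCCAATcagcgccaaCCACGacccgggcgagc
Syvn1: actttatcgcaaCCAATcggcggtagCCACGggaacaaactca
These stretches lie at chr2:34772013-34772055 on the plus strand, chr10:86705521-86705668 on the minus strand, chr15:88819508-88819550, chr10:75893230-75893272, chr14:118937815-118937857 and chr19:6046520-6046562, the last 4 on the plus strand. The motif nearest to a start was that of Syvn1, at positions −44 to −26, and that of Hspa5 lay at −65 to −47. Herpud1 held the related ERSE-II (ATTGG, 1 base, CCACG), found in 10 of all genes with a window (0.037%), shown with the motif in capitals because this ERAD gene was not called in DKO against WT.
Herpud1: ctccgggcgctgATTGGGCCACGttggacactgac
It lies at chr8:94386365-94386399 on the plus strand. The UPRE searched as TGACGTGG was found in Sec24d and in 0.603% of all genes, and the E-box CACGTG, the core bound by Myc and by Mlx complexes, in 5 of the 31 ER genes (16.1%) and 6.86% of all genes. A carbohydrate response element written as 2 E-boxes 5 bases apart was found in 0 of the 27025 genes, so that this exact form carries no information here. For Atf6, Derl1, Hyou1, Manf, Ostc and Sec61a1 no promoter was searched.

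Per transcript length, by the authors' deposited TPM, the most abundant of the 37 in WT liver were P4hb (718 ± 112 TPM), Calr (310.4 ± 74.1 TPM), Hsp90b1 (241 ± 71.1 TPM), Herpud1 (233 ± 90.7 TPM) and Hspa5 (217 ± 98.6 TPM, SD, n = 6). P4hb stood above the next gene by more than either SD, and each of the other 4 lay within 1 SD of its neighbour in this order. In DKO the order began with Hspa5 (1109 ± 478 TPM), Hsp90b1 (900.4 ± 393 TPM), P4hb (844 ± 115 TPM) and Calr (651 ± 202 TPM, SD, n = 5), and each lay within the larger SD of its neighbour in the order. At the low end, Derl3 had 0.604 ± 0.643 TPM and Eif2ak3 3.80 ± 1.26 TPM in WT. Together the 37 genes took 0.617 to 1.29% of all counts in DKO, 0.421 to 1.05% in MlxKO, 0.401 to 0.585% in MycKO and 0.401 to 0.624% in WT.

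BiP, most of its partners, GRP94, 2 disulfide isomerases and 3 of 9 ERAD genes were higher in DKO liver than in WT liver, while the lectin chaperones, most ERAD genes and 3 of the 4 genes at the head of the stress pathway were not called. Of the 37 genes, 16 were called higher and 1 lower in DKO against WT, where 7.58% of all genes tested were called higher and 10.9% lower. The median log2 fold change was 0.47 over the 37 and −0.02 over all genes tested. By role, 6 of 7 genes of the ER Hsp70 system, all 3 of Hsp90b1, Manf and Creld2, 2 of 5 protein disulfide isomerases, 3 of 9 ERAD genes, 1 of 4 sensor genes and 1 of 2 COPII genes were called higher, and none of the 2 lectin chaperones or the 5 genes of the translocon and oligosaccharyltransferase was called. The 3 comparisons with WT share the same 6 WT libraries.

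Hspa5 (BiP) stood at 2606, 2759, 883, 2040.4 and 1430.4 CPM in DKO 1 to DKO 5, and between 296 and 845 with a median of 354 CPM in WT. All 5 DKO libraries lay above all 6 WT libraries, although DKO 3 came close to WT 4, the highest WT library, and the fitted rise was 5.23-fold (log2 fold change 2.39 ± 0.43 SE, adjusted p = 0.0013). Hyou1, the exchange factor of BiP, had 349.8, 404, 111, 221 and 172 CPM in DKO, and was between 57.8 and 158 with a median of 70.4 CPM in WT. DKO 3 fell inside the WT range here and the other 4 lay above it (log2 fold change 1.76 ± 0.40 SE, adjusted p = 0.0063). Dnajb9, a J-protein that targets BiP to misfolded chains, reached 106, 90.9, 64.1, 81.0 and 105 CPM in DKO, and lay between 35.5 and 61.5 with a median of 39.2 CPM in WT. Its rise of 2.08-fold (log2 fold change 1.06 ± 0.20 SE, adjusted p = 0.0019) was smaller but tighter, with no overlap of the groups. Sdf2l1, a partner of the J-proteins, was measured at 65.9, 77.2, 11.9, 44.9 and 23.9 CPM in DKO and between 2.95 and 23.9 with a median of 5.70 CPM in WT. The 2 lowest DKO libraries, 3 and 5, did not exceed WT 4 (log2 fold change 2.40 ± 0.70 SE, adjusted p = 0.024). Dnajc3, which helps BiP and binds PERK, rose 1.52-fold (adjusted p = 0.02) and the disulfide reductase Dnajc10 1.36-fold (adjusted p = 0.0095), while Dnajb11 did not pass (log2 fold change 0.73 ± 0.28 SE, adjusted p = 0.077).

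Hsp90b1 codes for GRP94, the Hsp90 of the ER. It stood at 1897, 2170.4, 699.6, 1756 and 991 CPM in DKO, and between 337 and 715 with a median of 389 CPM in WT. DKO 3 alone lay below the highest WT library, WT 4 (3.68-fold, log2 fold change 1.88 ± 0.38 SE, adjusted p = 0.0033). Manf, a secreted cofactor of BiP, had 148, 168, 40.2, 102 and 68.4 CPM in DKO and was between 18.6 and 93.8 with a median of 26.0 CPM in WT. DKO 3 and DKO 5 fell below WT 4, and the gene was called at adjusted p = 0.028 (log2 fold change 1.83 ± 0.55 SE). Creld2, an ER-resident folding factor known as a target of ATF6, was at 179, 208, 39.5, 83.7 and 59.5 CPM in DKO and between 15.8 and 69.4 with a median of 17.2 CPM in WT. The rise was 5.83-fold (log2 fold change 2.54 ± 0.57 SE, adjusted p = 0.0059), with the same pair of DKO libraries inside the WT range. WT 4, labelled female, was the highest of the 6 WT libraries for 22 of the 37 genes, as it was for 20.1% of all genes tested.

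Among the protein disulfide isomerases, Pdia4 and Pdia3 were called and Pdia5, Pdia6 and P4hb were not. Pdia4 stood at 439, 520.3, 165, 338 and 230.1 CPM in DKO, and between 75.9 and 164 with a median of 89.9 CPM in WT. The lowest DKO library stood just above the highest WT library (3.57-fold, log2 fold change 1.84 ± 0.39 SE, adjusted p = 0.0039). Pdia3 (ERp57), the isomerase that works with the lectin chaperones, was at 485, 670.1, 323, 495 and 491 CPM in DKO and between 199 and 399.8 with a median of 228 CPM in WT, a rise of 1.98-fold in which DKO 3 fell inside the WT range (log2 fold change 0.98 ± 0.27 SE, adjusted p = 0.019). P4hb, the founding isomerase and the most abundant of the 37 in WT, had a log2 fold change of 0.05 (95% interval −0.32 to 0.42), Pdia5 one of −0.21 (−0.76 to 0.33) and Pdia6 one of 0.79 (0.01 to 1.57). The lectin chaperones Calr and Canx, which hold glycoproteins in the folding cycle, had log2 fold changes of 0.87 (adjusted p = 0.056) and 0.36 (adjusted p = 0.11).

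In ERAD the largest fold change of the 37 was that of Derl3, a membrane protein of the retrotranslocation machinery. Derl3 stood at 84.2, 98.1, 4.43, 46.1 and 10.1 CPM in DKO and between 0.105 and 1.83 with a median of 0.381 CPM in WT. In raw counts this was 1817, 1794, 136, 940 and 185 in DKO and 2 to 33 in WT, so the fitted fold of 97.8 (log2 fold change 6.61 ± 1.21 SE, adjusted p = 0.0016) rests on a very low level in WT. With limma-voom Derl3 was not called (log2 fold change 6.05, adjusted p = 0.103). Sel1l, the scaffold of the main ubiquitin ligase complex, was at 292, 265, 134, 212 and 191 CPM in DKO and between 88.6 and 115 with a median of 92.6 CPM in WT. Every DKO library exceeded every WT library (2.22-fold, log2 fold change 1.15 ± 0.23 SE, adjusted p = 0.003). Syvn1 (HRD1), the ligase itself, stood at 171, 163, 71.0, 117 and 122 CPM in DKO and between 47.2 and 86.1 with a median of 58.5 CPM in WT, with DKO 3 inside the WT range (2.23-fold, log2 fold change 1.16 ± 0.28 SE, adjusted p = 0.0088). Edem2, a mannosidase-like protein that marks misfolded glycoproteins, went the other way. It had 24.3, 30.5, 22.5, 20.5 and 21.6 CPM in DKO and was between 26.1 and 48.9 with a median of 33.7 CPM in WT. The groups overlapped only through DKO 2, and the gene was 1.69-fold lower in DKO (log2 fold change −0.76 ± 0.15 SE, adjusted p = 0.0028). The remaining ERAD genes were not called. Derl1 had a log2 fold change of 0.15, Derl2 of −0.44, Herpud1 of 0.42, Edem1 of 0.42 and Selenos of −0.04.

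**Figure D1:**
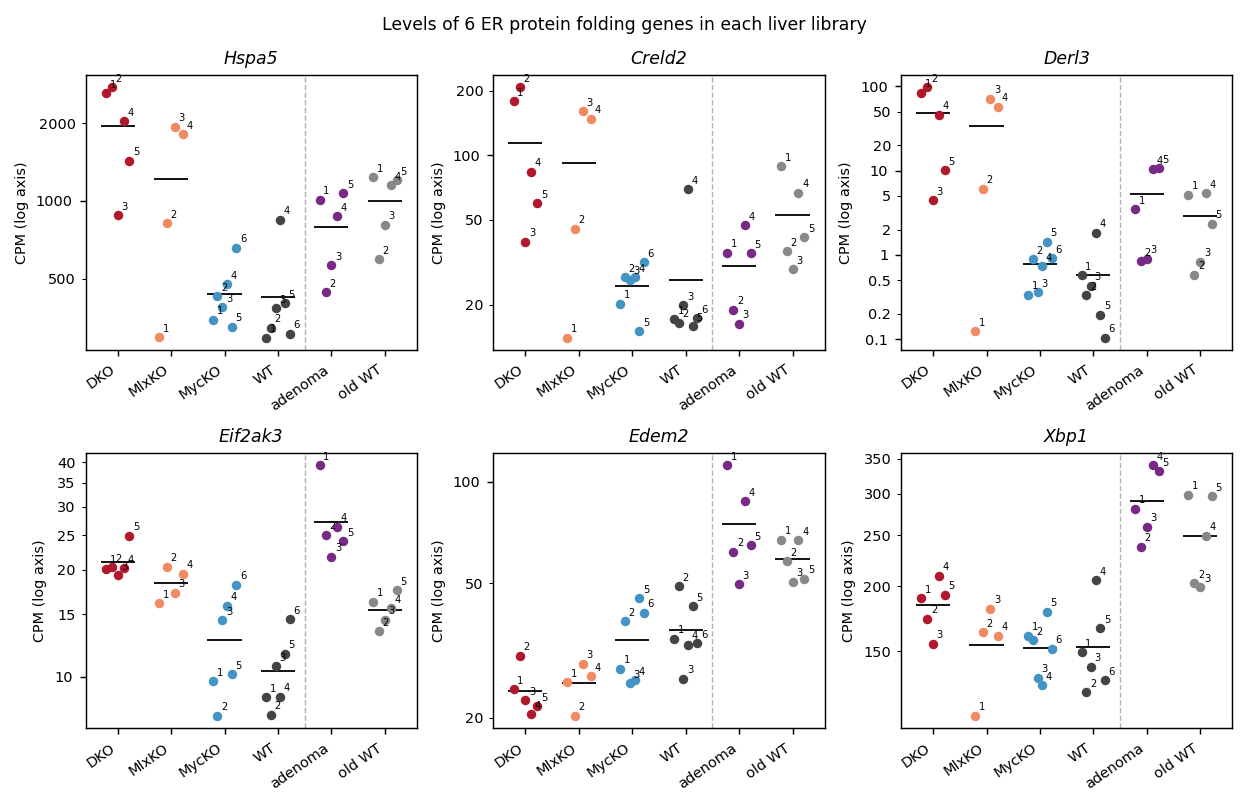
CPM on a log axis of Hspa5, Creld2, Derl3, Eif2ak3, Edem2 and Xbp1 in each library, with the replicate number beside each point and a bar at the group mean; the dashed line parts the 5-month set from the old set, which were scaled and tested separately. For Hspa5, MlxKO 1 (297 CPM) sits among the WT libraries while MlxKO 3 (1935 CPM) sits among the DKO libraries.

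Of the sensors, only the PERK gene Eif2ak3 was called. Eif2ak3 codes for the kinase that slows translation under ER stress, and it had 20.1, 20.3, 19.3, 20.2 and 24.9 CPM in DKO and was between 7.84 and 14.5 with a median of 9.75 CPM in WT. DKO 5 was the highest, the other 4 lay close together, and all 5 lay above all WT libraries (2.08-fold, log2 fold change 1.06 ± 0.20 SE, adjusted p = 0.0019). Xbp1, whose mRNA is spliced by IRE1, stood at 189.5, 173, 155, 209 and 192 CPM in DKO and between 125 and 205 with a median of 145 CPM in WT. The groups overlapped, with a log2 fold change of 0.26 (95% interval −0.05 to 0.58). Atf6 had 68.3, 71.2, 62.6, 76.5 and 87.6 CPM in DKO and was between 48.1 and 89.8 with a median of 56.6 CPM in WT, again with overlap (0.13, −0.22 to 0.49). Ern1 had 36.0, 48.2, 49.0, 40.4 and 51.3 CPM in DKO and was between 28.9 and 52.1 with a median of 33.7 CPM in WT, so these groups overlapped too (0.19, −0.27 to 0.66). Gene counts do not show splicing of Xbp1, cleavage of ATF6 or phosphorylation of PERK.

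Among the genes of import and export, Sec23b alone was called. Sec23b, a subunit of the COPII coat that buds vesicles from the ER, was at 32.4, 36.1, 23.4, 31.5 and 38.7 CPM in DKO and between 21.8 and 31.6 with a median of 24.0 CPM in WT (1.39-fold, log2 fold change 0.47 ± 0.13 SE, adjusted p = 0.015), and 3 DKO libraries exceeded all WT libraries. Its partner Sec24d missed the threshold (log2 fold change 0.56 ± 0.20 SE, adjusted p = 0.052). Sec61a1 and Sec61b, subunits of the import channel, had log2 fold changes of 0.02 and −0.77 (adjusted p = 0.098 for Sec61b), and Ssr1, Ssr3 and Ostc, of the translocon-associated and oligosaccharyltransferase complexes, had 0.20, 0.24 and −0.05.

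The DKO livers differed among themselves. DKO 3, the most deeply sequenced library of the set with 28476797 counts, was the lowest of the 5 for 32 of the 37 genes, against 14.2% of all genes tested, and DKO 2, the least deeply sequenced with 18226467 counts, was the highest for 23 of them, against 21.2% of all genes. Whether depth has a part in this was not tested. The call count in DKO against WT ran from 13 to 19 with any 1 of the 11 libraries left out. It was 18 in male libraries alone. Leaving out WT 2, WT 5 and MycKO 5 left 10 called, and Dnajc3, Sdf2l1, Manf, Creld2, Pdia3, Syvn1 and Sec23b then had adjusted p of 0.056 to 0.13 with the same direction. Hspa5, Hyou1, Dnajb9, Dnajc10, Hsp90b1, Pdia4, Sel1l, Eif2ak3 and Edem2 were called in all 19 alternatives run on this comparison.

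Markers of other cell types were also called in DKO against WT, where 7.58% of all genes tested were called higher and 10.9% lower. Kupffer cell and macrophage markers fell in 7 of 10 genes, with a summed level of 141 to 266 CPM in DKO and 191 to 522 CPM in WT. Erythroid genes fell in 5 of 5 tested (summed 182 to 545 CPM in DKO, 255 to 2084 CPM in WT) and hepatocyte markers in 4 of 10. Of 10 markers of sinusoidal endothelium 2 were called higher, Fcgr2b and Kdr. The 10 summed to 215 to 417 CPM in DKO and 273 to 403 CPM in WT, with overlap. Of 10 stellate cell markers 2 were called higher, Lrat and Reln. Those 10 summed to 277 to 380.3 CPM in DKO and 152 to 320.4 CPM in WT, also with overlap. Of 8 T and NK cell markers tested Cd8a rose and Cd4 fell, both at under 1 CPM in each group mean, and the B cell gene Cd79a fell. Plasma cell and B cell markers, the genes of a cell type rich in ER, summed to 1.86 to 5.48 CPM in DKO and 1.54 to 9.98 CPM in WT. These sums hold no immunoglobulin counts, since those genes were at 0. Markers of pancreatic acinar cells, 9 in number, summed to 5.20 to 9.84 CPM in DKO, where 6 of them were at 0, and 3.92 to 18.9 CPM in WT. The part of these cell type markers in the result was not tested.

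Against MycKO, which carries the same Cre and strain background, 4 of 7 genes of the Hsp70 system, all 3 of Hsp90b1, Manf and Creld2, 2 of 5 disulfide isomerases and 4 of 9 ERAD genes were higher in DKO liver, measured in the same 5 DKO libraries. Of the ERAD genes 1 was lower, and neither lectin chaperone was called. In this comparison 15 of the 37 genes were called higher and 1 lower, where 4.36% of all genes tested were called higher and 7.52% lower. The median log2 fold change was 0.47 over the 37 and −0.02 over all genes. Hspa5 in MycKO lay between 327 and 661 CPM with a median of 408, below all 5 DKO libraries (4.87-fold higher in DKO, log2 fold change 2.28 ± 0.40 SE, adjusted p = 0.0022). Hsp90b1 did not overlap either, with a MycKO range of 314 to 575 CPM (log2 fold change 1.91 ± 0.37 SE, adjusted p = 0.0039), and the same held for Dnajb9 (31.3 to 54.9 CPM in MycKO), Creld2 (15.1 to 31.6 CPM), Pdia3 (174 to 309 CPM), Pdia4 (61.7 to 152 CPM), Derl3 (0.337 to 1.44 CPM) and Eif2ak3 (7.78 to 18.1 CPM). For Eif2ak3 the gap was small, with 19.3 CPM in the lowest DKO library and 18.1 CPM in the highest MycKO library (log2 fold change 0.78 ± 0.20 SE, adjusted p = 0.018). Hyou1, Sdf2l1, Manf, Sel1l, Syvn1 and Sec23b were called higher with overlapping groups, at log2 fold changes of 1.81, 2.30, 1.81, 0.95, 1.28 and 0.47. Of these, Hyou1, Sel1l and Syvn1 were called in all 19 alternatives, Sec23b in 17, Sdf2l1 in 14 and Manf in 13. Edem1, another mannosidase-like ERAD protein, was called here (log2 fold change 0.57, adjusted p = 0.033), a call kept in 10 of 19 alternatives with adjusted p up to 0.085, and Edem2 was lower (−0.65, adjusted p = 0.0097). The Edem1 gene lies 4.21 Mb from the Rosa26 locus on chromosome 6, which both groups carry in the modified form. Dnajc3 and Dnajc10 did not pass (adjusted p = 0.069 and 0.16), and neither did Xbp1, Atf6 or Ern1, with log2 fold changes of 0.27, 0.22 and 0.08. Kupffer cell markers fell in 9 of 10 genes, with a summed level of 141 to 266 CPM in DKO and 362 to 620.2 CPM in MycKO. T and NK cell markers fell in 3 of 8 tested (Cd3g, Cd8a and Cd3e), with a summed level of 1.53 to 3.66 CPM in DKO and 3.95 to 10.3 CPM in MycKO. The part of both in the result was not tested. With other tools, scaling, filters, terms or libraries the number of the 37 called in this comparison was 13 to 18.

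In MlxKO liver the same kind of genes stood high in 2 of 4 libraries. Of the 37 genes, 3 were called higher and 1 lower against WT, where 0.634% of all genes tested were called higher and 1.06% lower. Before adjustment, 16 genes with higher and 2 with lower values in MlxKO passed p of 0.05, as did 9.7% and 12.4% of all genes tested. The median log2 fold change was 0.31 over the 37 and −0.02 over all genes. Hspa5 had 297, 822, 1935 and 1812 CPM in MlxKO 1 to MlxKO 4, and lay between 296 and 845 with a median of 354 CPM in WT. MlxKO 1 was as low as the lowest WT library and MlxKO 3 and 4 were more than 2-fold above the highest (log2 fold change 1.71 ± 0.43 SE, adjusted p = 0.048). Derl3 had 0.124, 6.07, 71.6 and 57.6 CPM in MlxKO and was between 0.105 and 1.83 with a median of 0.381 CPM in WT. In raw counts MlxKO 1 held 3 and MlxKO 3 held 1506 (log2 fold change 6.09 ± 1.22 SE, adjusted p = 0.016). Eif2ak3 was the exception to this split, with 16.1, 20.4, 17.2 and 19.5 CPM in MlxKO, and between 7.84 and 14.5 with a median of 9.75 CPM in WT. All 4 MlxKO libraries lay above all 6 WT libraries (1.82-fold, log2 fold change 0.86 ± 0.21 SE, adjusted p = 0.039). Edem2 had 25.5, 20.2, 28.9 and 26.5 CPM in MlxKO, and between 26.1 and 48.9 with a median of 33.7 CPM in WT, and was called lower with overlapping groups (log2 fold change −0.68 ± 0.16 SE, adjusted p = 0.036). In 19 alternatives run on this comparison, Derl3 was called in 13, Edem2 in 8, Hspa5 in 6 and Eif2ak3 in 5.

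Several chaperones of this comparison that missed the threshold had large fold changes with wide errors. Others had smaller ones, with log2 fold changes of 0.20 and 0.68 for the 2 lectin chaperones. Creld2 had 14.1, 45.3, 160.3 and 148 CPM in MlxKO (log2 fold change 2.24 ± 0.58 SE, adjusted p = 0.054), Sdf2l1 3.97, 14.6, 65.9 and 66.5 CPM (log2 fold change 2.16 ± 0.72 SE, adjusted p = 0.1) and Hsp90b1 314, 632, 1669.8 and 1603 CPM (log2 fold change 1.37 ± 0.40 SE, adjusted p = 0.072). In each, MlxKO 1 was the lowest of the 4, below the WT median, and MlxKO 3 and 4 lay close together at the top. Hyou1, Pdia4, Manf, Sel1l and Syvn1 had the same order of libraries at the low end, with log2 fold changes of 1.46, 1.41, 1.52, 0.86 and 0.92 and adjusted p from 0.067 to 0.13. Xbp1 had 113, 163, 181 and 161 CPM, Atf6 74.2, 88.3, 71.6 and 70.4 CPM and Ern1 51.6, 46.0, 35.5 and 41.8 CPM in MlxKO. Their log2 fold changes were 0.01 (95% interval −0.32 to 0.35), 0.19 (−0.18 to 0.56) and 0.15 (−0.34 to 0.64).

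MlxKO 1 was the lowest of the 4 libraries for 30 of the 37 genes, against 22.4% of all genes tested. MlxKO 3 and MlxKO 4 were the highest for 19 and 12 of the 37, against 23.5% and 23.7% of all genes tested. MlxKO 3 and 4 were also the closest pair of replicates of any group, with a chi-square of 16.1 per gene, which is above sampling noise. Of 10 Kupffer cell markers 0 were called by edgeR and 8 were lower before adjustment, with a median log2 fold change of −0.68 and sums of 199.6 to 307 CPM in MlxKO and 191 to 522 CPM in WT, and their part in the result was not tested. The number of the 37 called rested on single libraries. Without MlxKO 1 it was 8, without MlxKO 2 it was 1, and without MlxKO 3 or without MlxKO 4 it was 0. It was 2 without WT 1 or without WT 3, and 1 without WT 2 or without WT 5. DESeq2 called 11, limma-voom 2, and a fit of the 2 groups alone 0. The 33 genes not called had log2 fold changes from −0.62 to 2.24.

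**Figure D2:**
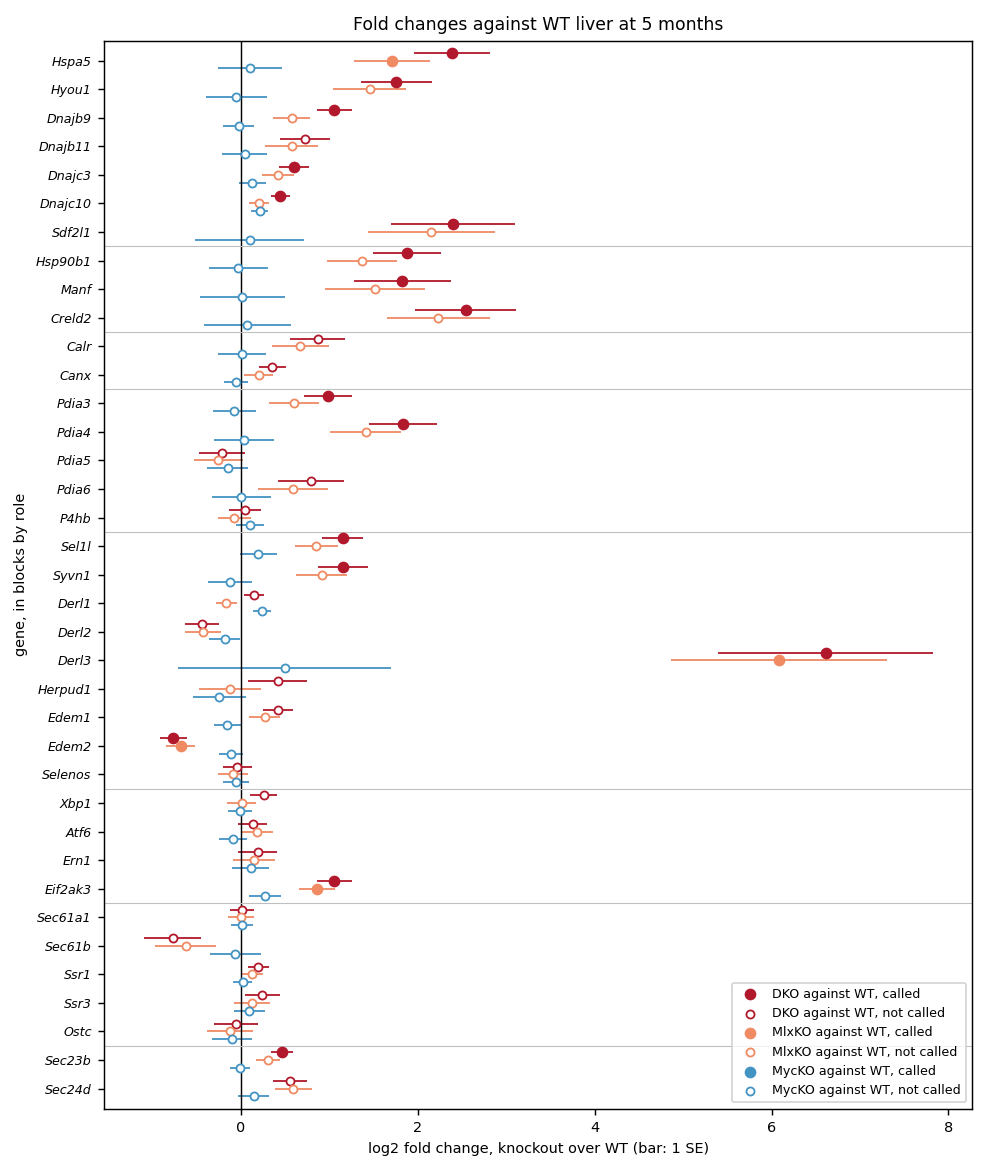
Log2 fold changes (points, with bars of 1 SE) of the 37 genes in DKO, MlxKO and MycKO against WT at 5 months, filled where called, with rows in blocks by role. Points of DKO and MlxKO lie to the right of 0 for most chaperones and for Derl3 (log2 6.61 and 6.09), while those of MycKO lie between −0.24 and 0.50 and none is filled.

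In MycKO liver edgeR called none of the 37 genes against WT, where 0.0299% of all genes tested were called higher and 0.0597% lower. DESeq2 and limma-voom also called 0, and 2 genes, Dnajc10 (log2 fold change 0.21) and Derl1 (0.24), passed an unadjusted p of 0.05 with higher values in MycKO. Of all genes tested, 4.02% passed it with higher and 3.65% with lower values, so 2 of 37 is near that share. The median log2 fold change was 0.01 over the 37 and 0.00 over all genes. Over the 37, log2 fold changes ran from −0.24 to 0.50. Hspa5 lay between 327 and 661 CPM with a median of 408 in MycKO, and between 296 and 845 with a median of 354 CPM in WT. Those groups overlapped almost wholly, and the 95% interval of the log2 fold change was −0.66 to 0.86. For Xbp1, with 129 to 178 CPM in MycKO and 125 to 205 CPM in WT, the interval was −0.29 to 0.27. Eif2ak3 ran from 7.78 to 18.1 CPM in MycKO and from 7.84 to 14.5 CPM in WT (interval −0.10 to 0.66). Derl1 lies 4.09 Mb from Myc on chromosome 15. MycKO 6 was the highest of the 6 MycKO libraries for 24 of the 37 genes, as it was for 13.5% of all genes.

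No ER gene passed the threshold between DKO and MlxKO. edgeR called 0 of the 37 in DKO against MlxKO, where 0.00746% of all genes tested were called higher and 0.0299% lower, and DESeq2 and limma-voom called 0. Dnajb9 and Derl1 passed an unadjusted p of 0.05, with higher values in DKO, as did 2.38% of all genes tested, and 3.64% of all genes did with lower values. Derl1 stood at 166, 150.4, 152, 181 and 154 CPM in DKO and 116, 115, 148 and 139 CPM in MlxKO, and each DKO library exceeded each MlxKO library (log2 fold change 0.31 ± 0.12 SE, adjusted p = 0.66). For Hspa5 the log2 fold change was 0.68 with a 95% interval of −0.21 to 1.56, and for Derl3 it was 0.52 with −1.35 to 2.39, so differences of more than 2-fold between the groups remain within these intervals. The test of whether the loss of both genes departed from the sum of the single losses on the log2 scale called 0 of the 37 with edgeR, DESeq2 and limma-voom and 0 at an unadjusted p under 0.05, where 0% of all genes tested were called higher and 0% lower, and 1.69% and 1.81% passed the unadjusted p in these directions. The interaction term of Hspa5 was 0.57 (95% interval −0.59 to 1.73), that of Creld2 0.23 (−1.30 to 1.77) and that of Eif2ak3 −0.08 (−0.66 to 0.49).

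Other genes of the same routes, taken from lists fixed by name, were called in both directions in DKO against WT, where 7.58% of all genes tested were called higher and 10.9% lower. Several of the counts lie near those shares. Of 20 further ERAD genes 2 were called higher and 2 lower, among them the mannosidase-like Edem3 (log2 fold change 0.68) and the intramembrane protease Hm13 (−0.55). Of 18 further chaperones and folding enzymes tested 3 were higher and 2 lower, with a median log2 fold change of −0.25, the glycoprotein folding sensor Uggt1 at 0.59 and the exchange factor Sil1 at −0.57. Of 12 further genes of oxidative folding, Ero1a, the oxidase that recharges the isomerases, was higher (0.53) and the peroxiredoxin Prdx4 lower (−0.56). Of 32 further genes of import, signal peptidase and glycosylation 2 were higher and 7 lower, with the catalytic subunit Stt3b at 0.51 and the channel subunit Sec61g at −1.04. Of 18 further COPII genes 4 were higher and 0 lower (Sec24a 0.62, Sec23a 0.51, Sec24c 0.51 and Tfg 0.42). Of 13 further regulators of the response 3 were higher, including the ER-bound transcription factor Creb3l2 (0.94). Of 5 genes of the PERK arm outside the ER 1 was lower, the transcription factor Atf4 (−0.41, 70.3 ± 5.96 CPM in DKO and 86.9 ± 15.1 CPM in WT). As comparators outside the ER, 1 of 20 heat shock genes of the cytosol or mitochondria was higher (Hspa4, 0.34) and 1 lower (the mitochondrial Hspe1, −0.66). Of 16 clock genes 2 were higher and 1 lower (Dbp, −3.50, with 1.55 ± 0.623 CPM in DKO and 11.5 ± 21.2 CPM in WT).

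In the adenomas, 1 stress sensor was higher and 1 subunit of the import channel lower than in old WT liver, and BiP was not called. edgeR called 1 of the 37 higher and 1 lower in adenoma against old WT, where 8.74% of all genes tested were called higher and 7.68% lower, and the median log2 fold change was −0.20 over the 37 and 0.04 over all genes. Together the 37 took 0.772 to 1.08% of counts in adenomas and 0.748 to 0.945% in old WT. Eif2ak3, called higher, had 39.2, 25.0, 21.7, 26.4 and 24.0 CPM in adenomas 1 to 5 and 16.3, 13.4, 14.5, 15.6 and 17.5 CPM in old WT 1 to 5. Every adenoma exceeded every old WT liver, with adenoma 1 far above the rest (1.80-fold, log2 fold change 0.84 ± 0.20 SE, adjusted p = 0.019). Sec61b had 25.1, 45.5, 22.9, 21.3 and 24.3 CPM in adenomas and 72.9, 63.6, 59.4, 81.0 and 66.4 CPM in old WT. Every adenoma was below every old WT liver (2.42-fold lower, log2 fold change −1.27 ± 0.24 SE, adjusted p = 0.0075), and adenoma 2 stood apart from the other 4. The other import channel subunit, Sec61a1, had a log2 fold change of −0.22 (95% interval −0.61 to 0.17).

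Hspa5 had 1013, 443, 564, 875 and 1072 CPM in adenomas and 1238, 597, 809.7, 1152 and 1204 CPM in old WT. These groups overlapped, with a log2 fold change of −0.03 (95% interval −0.63 to 0.57). Hyou1 had 175, 75.1, 69.4, 182 and 126 CPM in adenomas and 365, 196, 217, 287 and 254 CPM in old WT, without overlap but short of the threshold (log2 fold change −0.91 ± 0.33 SE, adjusted p = 0.083). Calr, at 787, 415, 669, 748 and 831 CPM in adenomas and 1069, 840.4, 952, 1288 and 1051 CPM in old WT, did not overlap either (log2 fold change −0.45 ± 0.23 SE, adjusted p = 0.19). Dnajc10 varied widely among adenomas, with 136, 62.9, 46.7, 18.3 and 64.4 CPM, and lay between 24.4 and 35.6 CPM in old WT (log2 fold change 1.23 ± 0.46 SE, adjusted p = 0.088). Derl3 had 3.49, 0.844, 0.901, 10.3 and 10.7 CPM in adenomas and 5.16, 0.579, 0.827, 5.36 and 2.35 CPM in old WT (log2 fold change 2.02 ± 0.80 SE, adjusted p = 0.1). Xbp1 had 281, 238, 259.9, 340.3 and 332 CPM in adenomas and 299, 203, 199, 249 and 297 CPM in old WT. Atf6 had 97.2, 62.7, 71.3, 77.6 and 59.0 CPM in adenomas and 85.2, 75.5, 75.1, 86.9 and 102 CPM in old WT. Ern1 had 32.1, 24.3, 25.0, 16.1 and 19.5 CPM in adenomas and 20.6, 31.0, 39.8, 27.9 and 44.2 CPM in old WT. For Xbp1, Atf6 and Ern1 the groups overlapped, at log2 fold changes of 0.39 (95% interval 0.01 to 0.77, adjusted p = 0.14), −0.20 (−0.62 to 0.22, adjusted p = 0.5) and −0.58 (−1.14 to −0.02, adjusted p = 0.14). The COPII gene Sec24d missed the threshold (log2 fold change −0.81 ± 0.26 SE, adjusted p = 0.056). Hyou1 and Sec24d were each called in 4 of 18 alternatives, and Dnajc10 in 3. Over the 35 genes not called, log2 fold changes ran from −0.91 to 2.02.

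**Figure D3:**
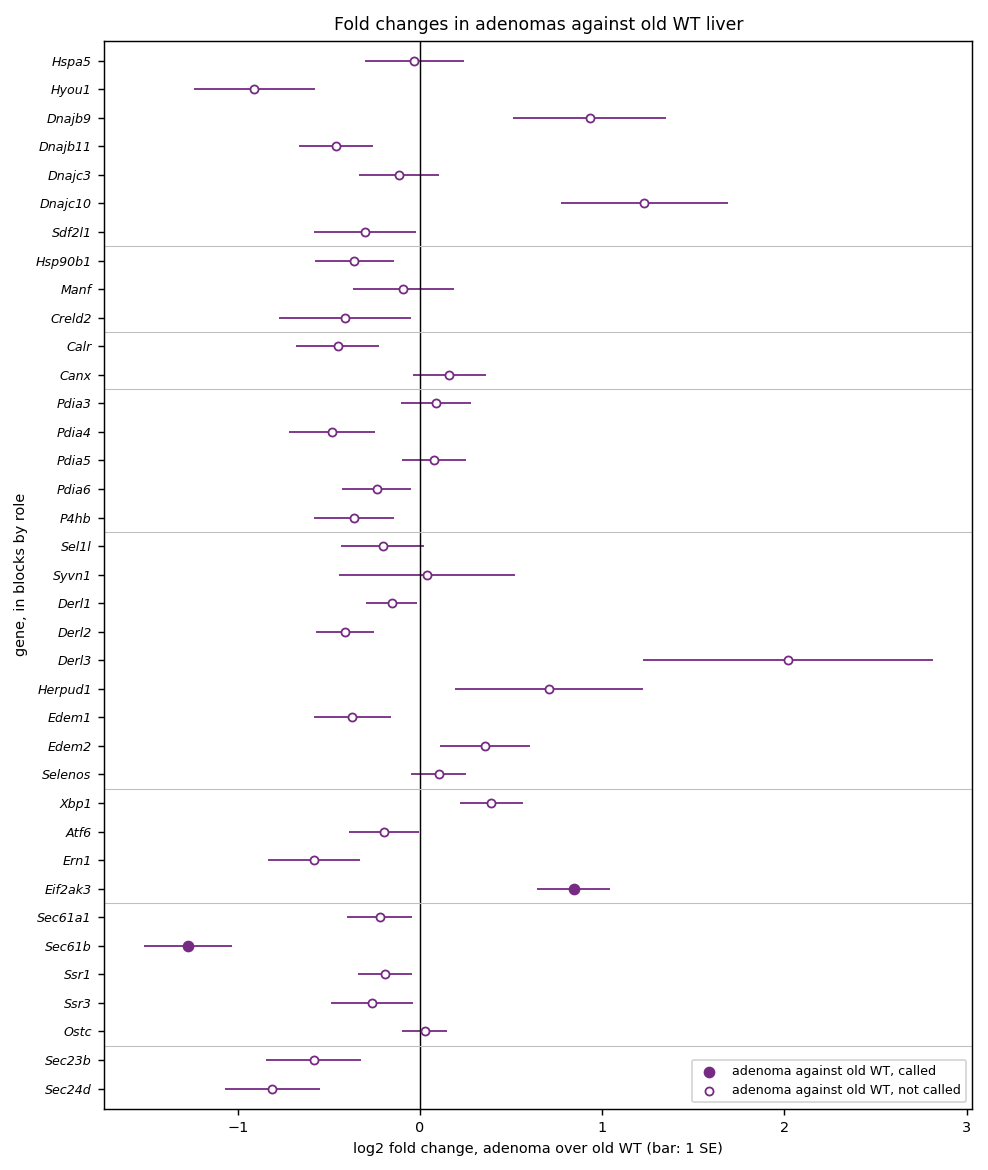
Log2 fold changes (points, with bars of 1 SE) of the 37 genes in adenomas against old WT liver, filled where called, with rows in blocks by role. Only Eif2ak3 (log2 0.84) and Sec61b (log2 −1.27) are filled, and Derl3 has the largest value (log2 2.02) with a wide bar.

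The adenoma counts depended on the libraries and on the sex term. Without adenoma 1 the number of the 37 called was 5, without adenoma 4 it was 4, and without adenoma 5, old WT 2 or old WT 3 it was 1. Libraries labelled female alone, 4 adenomas and 2 old WT livers, gave 0, and a fit without the sex term gave 8, of which 6 were lower. Taking adenoma 5 as female, or halving the adenoma counts, left Eif2ak3 and Sec61b called. Halving does not remove other differences in processing between adenomas and old WT. Old WT 2 and old WT 3, labelled female, were the lowest old WT livers for 20 and 12 of the 37 genes, against 19.7% and 14.4% of all genes tested. Old WT 1, 4 and 5, labelled male, were the highest for 10, 13 and 13, against 20.3%, 18.2% and 26.4% of all genes. The part of sex in this was not tested. The adenomas also differed from old WT in cell type markers. Of all genes tested, 8.74% were called higher and 7.68% lower in this comparison. The 10 hepatocyte markers summed to 45428 to 81233 CPM in adenomas and 128250 to 176119 CPM in old WT, with 2 called lower (Alb and Apoa2). Neutrophil markers were higher in 4 of 5 tested, stellate cell and fibroblast markers in 4 of 10, cholangiocyte markers in 2 of 6 (Spp1 and Sox9), T and NK cell markers in 3 of 8 and proliferation markers in 3 of 10, with sums of 8.09 to 88.6, 159 to 1057, 55.8 to 635, 7.66 to 33.0 and 22.2 to 117 CPM in adenomas and 4.29 to 9.34, 204 to 417, 48.4 to 62.3, 3.08 to 4.67 and 32.4 to 59.8 CPM in old WT. Their part in the result was not tested. In the same lists, 3 of 20 further ERAD genes were lower, among them the ATPase Vcp (log2 fold change −1.20). Of 18 further chaperones 1 was higher (Fkbp11, 2.12), near the share over all genes, and 4 were lower. Of 20 heat shock genes of the cytosol or mitochondria 5 were lower, among them the mitochondrial Hspd1 (−0.85). Of 6 genes of the PERK arm outside the ER, Ddit3, the gene of the factor CHOP, was higher (1.15) with Trib3 (1.02), and the phosphatase subunit Ppp1r15b was lower (−0.61).

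Some counts can include reads of overlapping genes, since no label states whether counting used the strand. Of the exonic bases of Hsp90b1, 10.3% are shared with 1810014B01Rik on the opposite strand, and for Eif2ak3 the share is 8.05% with Gm43292 and for Sec61a1 8.16% with Gm44170, both listed at 0 counts in the 5-month table. Manf shares 4.14% of its exonic bases with Dcaf1 on the opposite strand, which had 26.6 to 33.9 CPM in DKO and 13.4 to 32.2 CPM in WT without TMM scaling, and Syvn1 shares 1.87% with Mrpl49, which had 16.1 to 19.2 CPM in DKO and 13.2 to 25.4 CPM in WT. Of stretches of 75 bases in the longest transcript, 13.1% of Sec61a1, 7.02% of Hsp90b1, 5.99% of Eif2ak3, 5.86% of Sec61b, 4.23% of Manf, 4.16% of Derl1, 2.72% of Dnajb9 and 0.399% of Syvn1 occur in transcripts of other genes, and 29 of the 37 genes share none.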

How the data were processed

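Liver poly(A) RNA was sequenced in 31 libraries and deposited as 2 gene tables, 1 of 21 libraries at 5 months and 1 of 10 old livers and adenomas. The authors deposited raw counts per gene ("Total counts") and TPM, both made by them before deposit, and the submitters' processing notes name the genome build GRCm38.p6; the aligner is not given in sources used here. A further 62 columns of RPKM and CPM values were not used. TPM served only to order levels per length.

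Counts were tested with edgeR 4.0.16 (quasi-likelihood test, TMM scaling, filterByExpr with a minimum count of 10, sex as a term) in R 4.3.3, each table fitted by itself over all of its libraries, with Benjamini-Hochberg adjustment over all genes tested. Library sizes for scaling were summed over the genes that passed the filter. Alternatives were size factors of the RLE kind, DESeq2 1.42.0, limma-voom (limma 3.58.1), no filter, no sex term, 1 sex only, fewer groups and each library left out. The test was checked on simulated data, in which some genes were changed by a known log2 fold of 1 or 2 in either direction. In DKO against WT it recovered 57% and 92% of these. The shares were 54% and 85% in MlxKO against WT and 22% and 68% in adenoma against old WT. A gene that was not called can therefore have changed, most of all in the adenomas. Total counts per library ran from 16036626 to 37087490.

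The 37 genes, the gene and marker lists and the motifs were chosen with earlier results of these data known. Named genes are the 37, with values for each library (or lowest, median and highest) for those called in 2 or more comparisons, the up to 8 called genes with the smallest adjusted p in each comparison, the sensors and Hspa5; of other lists, up to 4 called genes each. Sequences are from RefSeq promoter tables of GRCm38.p6. Raw counts of Derl3 were low in WT (2 to 33) and MycKO (7 to 32), and how far depth limits precision was not tested.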

Additional observations from a re-analysis of the deposited data

Results flagged for a closer look

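For each ER gene and group, the highest or lowest library was set against the others by the gap to its nearest neighbour over the whole range (Dixon's 95% value), and 17 of 222 sets passed it. Chance flags about 1 in 20 groups, and genes of 1 library are not independent. WT 4 accounted for 9 of these, each time as the highest of 6. In WT 4 the level was 845 CPM for Hspa5, 158 CPM for Hyou1, 105 CPM for Dnajb11, 93.8 CPM for Manf, 69.4 CPM for Creld2, 400 CPM for Pdia3, 164 CPM for Pdia4, 1.83 CPM for Derl3 and 31.6 CPM for Sec23b. The next highest WT library had 403 CPM for Hspa5 and 19.9 CPM for Creld2. MycKO 6 was the highest of 6 for Manf (54.4 CPM), Syvn1 (78.5 CPM) and Edem1 (121 CPM), and MycKO 5 for Herpud1 (407 CPM, next 188 CPM). DKO 5 was the highest of 5 for Eif2ak3 (24.9 CPM). Adenoma 1 was the highest of 5 for Eif2ak3 (39.2 CPM) and Ssr3 (308 CPM), and adenoma 2 for Sec61b (45.5 CPM).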

How the results depend on the processing

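The number of ER genes called in DKO against WT was 17, and with other tools, scaling, filters, terms or groups it was 17 to 20, except for 10 without WT 2, WT 5 and MycKO 5. The number in MlxKO against WT, 4, moved most. It was 11 with DESeq2, 2 with limma-voom, 1 without the sex term, 1 in males only, 0 with only the groups compared, 0 without WT 2, WT 5 and MycKO 5, and 0 without MlxKO 3 and MlxKO 4, an alternative chosen after seeing the data. In adenoma against old WT, where 2 were called, DESeq2 gave 7, a fit without the sex term 8 and females only 0. With 1 library left out, the number ran from 13 to 19 in DKO against WT, 13 to 18 in DKO against MycKO, 0 to 8 in MlxKO against WT and 1 to 5 in adenoma against old WT, and was 0 to 0 in MycKO against WT, DKO against MlxKO and the interaction. The cause of these moves was not tested. Where 1 sample was left out of a group the spread came from all groups. The interaction needs all 4 groups, so its fit with only the groups compared was not run. No paired analysis was possible because the labels give no pairing between groups and replicate numbers only name samples.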

Other observations

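Hspa5, the gene of BiP, stood between 597 and 1238 CPM in old WT livers and between 296 and 845 CPM in 5-month WT livers, and Derl3 between 0.579 and 5.36 CPM in old WT livers and between 0.105 and 1.83 CPM in 5-month WT livers. The old mice were not fasted and their table was scaled by itself, so age, feeding and table cannot be told apart, and no test was made.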
